A study of Mus musculus with 4 samples.

Results

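The genes described here are 8 mouse genes used as markers of neutrophils: S100a8, S100a9, Retnlg, Csf3r, Cxcr2, G0s2, Mmp9 and Lcn2. They were taken by symbol from the gene counts of 4 bulk RNA-seq libraries, and all 8 had an entry among the 55367 gene entries of each library. The libraries were made with a polyA kit from CD45.2+CD8+ cells, a gate meant for cytotoxic T cells, sorted from dissociated subcutaneous tumors grown from the B16-F10 line of mouse melanoma. The groups were WT, with 2 libraries, and KO, also with 2. WT hosts in the study's tumor model were C57BL/6 mice. The series names 2 further genotypes, Satb1 F/F with ThPOK-cre, a Cre driver active in CD4 lineage T cells, and Satb1 F/F with E8I-cre, a driver active in peripheral CD8 T cells. Both delete floxed Satb1, the gene of the chromatin organizer SATB1, in T cells rather than in neutrophils or macrophages. The labels do not say which driver the KO libraries carried, nor the age or sex of their animals (the study's mice were in general young adults of mixed sexes), nor whether each library came from a separate animal or a pool. The p-values below therefore measure the spread between these libraries, which may be technical.

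Neutrophils are short-lived granulocytes that leave the bone marrow under the cytokine G-CSF and follow CXC chemokines into inflamed tissue and tumors. They store antimicrobial proteins and proteases in granules that form in order during maturation in the marrow, so transcripts of the earliest granule proteins are largely gone from circulating cells, whereas S100a8 and S100a9 are among the most abundant transcripts of mature mouse neutrophils. Some of the genes are shared with other myeloid cells: monocytes also carry S100a8, S100a9 and the G-CSF receptor gene Csf3r.

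The 4 libraries held 4017875 to 5382915 counts on genes, so that 1 count was 0.186 to 0.249 CPM (counts-per-million of gene counts) and 3 counts, the upper limit a count of 0 allows, 0.557 to 0.747 CPM. The labels and the contents of the libraries were at odds. The 10 listed T cell markers summed to 304 and 516 counts in WT 1 and WT 2 and to 11287 and 7099 in the libraries labeled KO 1 and KO 2, and Satb1 itself had 7 and 5 counts against 131 and 55, higher where the label says knockout. Macrophage markers made up 2.24 to 3.90% of gene counts in every library, but single markers differed. Lyz2 had 7310, 13500, 15100 and 10900 CPM in WT 1, WT 2, KO 1 and KO 2, where C1qb had 6260, 8760, 2090 and 5020 CPM. Xist had 435 and 216 counts in WT and 0 and 3 in KO, and the Y-linked Ddx3y 0 and 0 against 188 and 81, so that the sex of the animals and the group cannot be told apart. Every direction given below is that of the libraries labeled KO against those labeled WT. In edgeR's quasi-likelihood test 11837 genes were kept and 68 of them (65 higher, 3 lower in KO) passed a Benjamini-Hochberg adjusted p of 0.05, which is 0.574% of the genes tested.

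Of the 8 neutrophil genes, Csf3r alone was present at 242 counts or more, and the other 7 had at most 21 counts in any library. S100a9, Retnlg and Cxcr2 never exceeded 3 counts. Together the 8 genes received 521 and 482 counts in the WT libraries, 293 in KO 1 and 540 in KO 2. Those sums were 0.0130%, 0.0113%, 0.00654% and 0.0100% of gene counts, with exact Clopper-Pearson 95% intervals of 0.0119 to 0.0141%, 0.0103 to 0.0124%, 0.00581 to 0.00733% and 0.00920 to 0.0109%. These intervals, like all others here, cover counting error only. The mean share was 0.0121% ± 0.00117 (SD, n = 2) in WT and 0.00829% ± 0.00247 (SD, n = 2) in KO, a ratio of 0.683, and the groups did not overlap. No test was made of this share, since permutation of so few libraries has 0.333 as its smallest exact two-sided p. Csf3r supplied 96.2%, 95.2%, 82.6% and 93.9% of these counts in WT 1, WT 2, KO 1 and KO 2, and the sum is therefore close to a measure of Csf3r. Without Csf3r the other 7 genes summed to 20, 23, 51 and 33 counts, or 5.19 ± 0.297 CPM (SD, n = 2) in WT and 8.76 ± 3.72 CPM (SD, n = 2) in KO, higher on average in KO with KO 2 at 6.13 CPM just above WT 2 at 5.4 CPM.

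**Figure D1:**
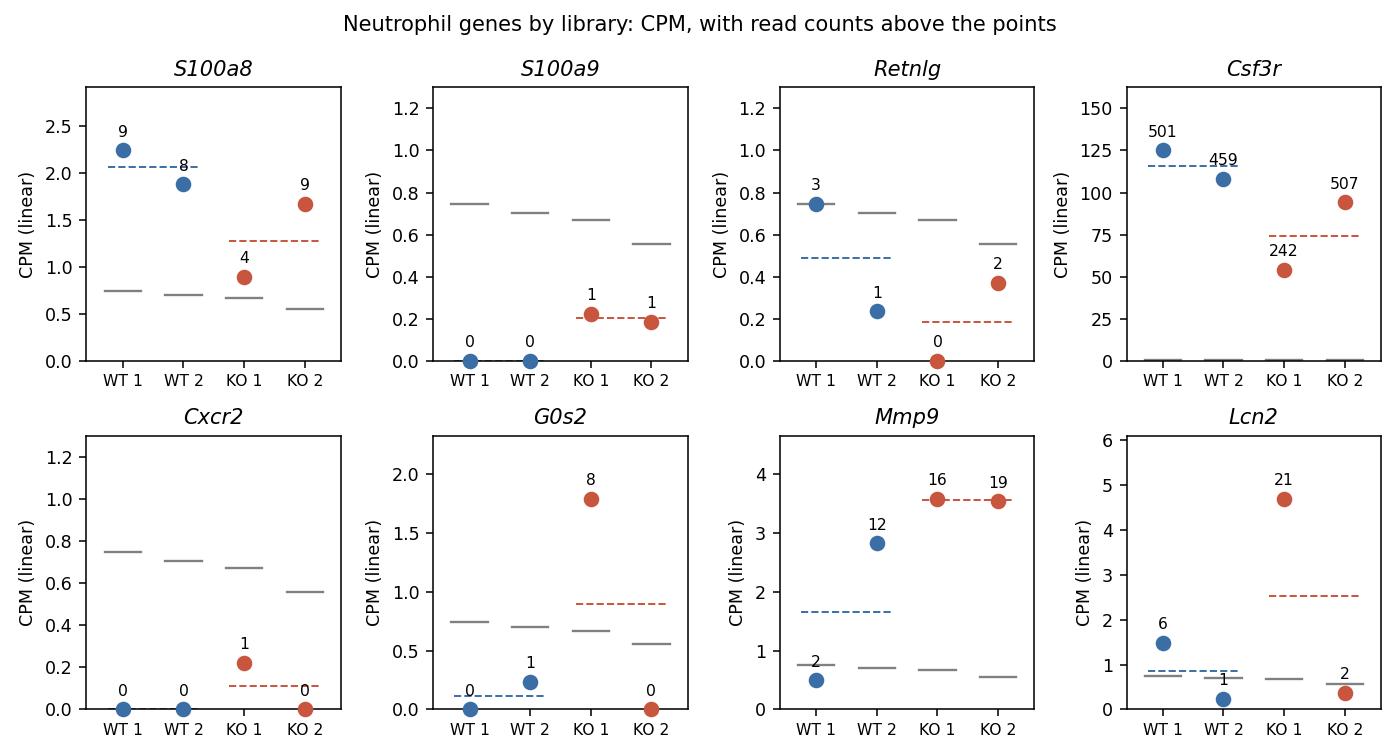
CPM of each of the 8 neutrophil genes (vertical axis, linear, a separate range for each gene) in WT 1, WT 2, KO 1 and KO 2, with the read count above each point, dashed group means and a gray bar at the CPM of 3 counts in that library. Csf3r lies between 54.0 and 125 CPM, all points of S100a9, Retnlg and Cxcr2 lie at or under the bar, and G0s2 and Lcn2 are highest in KO 1.

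The sequence just upstream of the transcription start is shown for Csf3r, the best counted of the 8 genes, and for S100a8 and S100a9, the pair that leads in neutrophils and had at most 9 counts and 1 count in any library here. Each run is read 5′ to 3′ on the strand of the gene, from RefSeq promoter windows on GRCm38.p6, and ends before the starts given by both RefSeq and GENCODE. Capitals mark matches to 2 short motifs, TTNNGNAA for C/EBP factors and GAGGAA for PU.1, searched on both strands, where matches of one may share bases with the other.
S100a8, chr3:90668821-90668977, plus strand: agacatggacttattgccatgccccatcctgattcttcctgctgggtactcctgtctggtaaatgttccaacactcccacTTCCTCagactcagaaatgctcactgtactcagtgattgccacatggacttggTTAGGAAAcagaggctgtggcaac
S100a9, chr3:90695722-90695971, minus strand: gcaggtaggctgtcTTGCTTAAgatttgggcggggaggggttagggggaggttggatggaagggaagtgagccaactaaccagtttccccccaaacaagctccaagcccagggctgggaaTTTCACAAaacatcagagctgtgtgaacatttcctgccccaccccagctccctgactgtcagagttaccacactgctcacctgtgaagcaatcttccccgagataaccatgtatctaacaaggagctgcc
Csf3r, chr4:126024409-126024549, plus strand: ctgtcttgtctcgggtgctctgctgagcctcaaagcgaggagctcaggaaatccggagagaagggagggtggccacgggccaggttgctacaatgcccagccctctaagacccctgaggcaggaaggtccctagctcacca
The S100a8 stretch held 1 match to each motif, the S100a9 stretch 2 to the C/EBP motif and none to the PU.1 motif, and the Csf3r stretch none to either. In the full windows of 300 bases, which 7 of the 8 genes had (all but Mmp9), the C/EBP motif was matched in S100a8, S100a9, Retnlg and Lcn2 and the PU.1 motif in S100a8, Csf3r, Cxcr2 and Lcn2. Among all 32851 promoter windows of that length, 40.7% held the C/EBP motif and 28.3% the PU.1 motif. A match is a run of letters and not a measured binding site.

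S100a8 and S100a9 encode the subunits of calprotectin, a calcium-binding protein that fills the neutrophil cytosol. They are neighbors on mouse chromosome 3 (GRCm38 chr3:90668978-90670035, plus strand, and chr3:90692632-90695721, minus strand). S100a8 had 9 and 8 counts in WT 1 and WT 2 and 4 and 9 in KO 1 and KO 2, or 2.24, 1.88, 0.893 and 1.67 CPM. KO 1 was lowest and the groups did not overlap in CPM, but the ratio of pooled counts, KO over WT, was 0.642 with a 95% counting interval of 0.287 to 1.40, so that a difference was not detectable at this depth. S100a9 had 0, 0, 1 and 1 counts. That is under the limit of 3 counts in every library and permits no fold. The alarmin pair was thus unequal, with S100a8 counted in all 4 libraries and S100a9 in KO 1 and KO 2 only, by 1 read each. Retnlg (chr16:48872621-48874496, plus strand), which encodes a resistin-like protein secreted by neutrophils, had 3, 1, 0 and 2 counts, and its pooled ratio of 0.420 had an interval of 0.0380 to 2.93.

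The 2 receptors of the group behaved differently from each other in level. Cxcr2 (chr1:74153989-74161246, plus strand), the receptor through which neutrophils sense CXC chemokines, had 0, 0, 1 and 0 counts, a level that allows at most 0.557 to 0.747 CPM in the libraries at 0. Csf3r (chr4:126024550-126044440, plus strand), which encodes the receptor for G-CSF, had 501, 459, 242 and 507 counts, or 125, 108, 54.0 and 94.2 CPM. KO 1 was lowest, KO 2 lay near WT 2, and the groups did not overlap in CPM, with means of 116 ± 12 CPM (SD, n = 2) in WT and 74.1 ± 28.4 CPM (SD, n = 2) in KO. The fitted log2 fold change was -0.97 (SE 0.47, unadjusted p = 0.0677), and edgeR's adjusted p was 0.399, so the gene did not pass. In these bulk libraries fewer cells carrying a transcript and less of it per cell cannot be told apart.

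G0s2 (chr1:193272161-193273217, minus strand), which encodes an inhibitor of the triglyceride lipase ATGL and is a marker of mature neutrophils, had 0, 1, 8 and 0 counts. Its reads came almost entirely from KO 1, and the pooled ratio of 6.72 had an interval of 0.900 to 298. Mmp9 (chr2:164940780-164955850, plus strand), a gelatinase stored in the late granules, had 2, 12, 16 and 19 counts, or 0.498, 2.82, 3.57 and 3.53 CPM. WT 1 was far below the other 3 libraries, and WT 2 reached 2.82 CPM against 3.53 CPM in KO 2. The fitted log2 fold change of Mmp9 was 0.80 (SE 0.98), with an edgeR adjusted p of 0.757. Without WT 1 it was 0.04 and without WT 2 it was 2.31, so the size rests on which WT library is kept. Lcn2 (chr2:32384633-32388252, minus strand), which encodes the iron-siderophore trap lipocalin 2 of the specific granules, had 6, 1, 21 and 2 counts, or 1.49, 0.235, 4.69 and 0.372 CPM. The groups overlapped, KO 1 held most of its reads, and the pooled ratio of 2.76 with an interval of 1.15 to 7.61 rests on that library, while KO 2 at 2 counts lay within the WT range.

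Csf3r and Mmp9 were thus the 2 of the 8 genes with enough counts to be tested, and 0 of the 2 passed in edgeR, against 0.574% of all genes tested. The number with an unadjusted p under 0.05 was also 0, against 13.7% of all genes tested. In DESeq2, which called 3.51% of all genes, 0 passed, and Csf3r had a log2 fold change of -0.99 and an adjusted p of 0.374. Fitted without a filter on low counts, all 8 entered, 0 passed, and the lowest edgeR adjusted p was 0.486, for Csf3r, where 2.74% of all genes passed. Csf3r and Mmp9 both had groups that did not overlap in CPM, as did 48.4% of the genes tested. Mmp9, at 2 counts in WT 1, was kept by the filter on low counts only with the help of the libraries labeled KO. The values of Mmp9 are therefore a description and support no call. Leaving out KO 2 moved Csf3r past the threshold, at a log2 fold change of -1.56 and an edgeR adjusted p of 0.0368, with KO 1 as the lone KO library and 1248 genes past the threshold in all. Over 14 settings its log2 fold change ran from -1.56 to -0.32.

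The lower Csf3r in the libraries labeled KO depended on what it was set against. Scaled by TMM, which corrects library totals for composition, its level was 151, 114, 46.0 and 88.5 CPM in WT 1, WT 2, KO 1 and KO 2, again without overlap and with a ratio of group means of 0.508. Per exon length, as TPM (counts per kilobase of exon, scaled to a common sum in each library), it was 56.2, 55.8, 31.3 and 60. On that scale KO 2 was the highest library, the groups overlapped, and the means were 56.0 ± 0.283 (SD, n = 2) in WT and 45.6 ± 20.3 (SD, n = 2) in KO. Per 1000 counts of the 11 macrophage markers, Csf3r had 4.42, 2.76, 2.41 and 3.35 counts, which also overlapped, with means of 3.59 ± 1.17 (SD, n = 2) and 2.88 ± 0.665 (SD, n = 2). Per 1000 counts of the 6 monocyte markers it had 77.8, 74.2, 25 and 58.1, without overlap. With the macrophage marker counts as the library size, edgeR gave Csf3r a log2 fold change of -0.32 and an adjusted p of 0.731. KO 1 was the lowest library on every one of these scales. KO 2 changed rank with the scale, from between the WT libraries and KO 1 to above both WT libraries. Of the macrophage marker counts, Lyz2 alone held 29370, 57521, 67802 and 58896 in WT 1, WT 2, KO 1 and KO 2, so that its part was largest in KO 1. The rank of KO 1 also depended on the marker used. Per 1000 counts of the single macrophage gene Csf1r, Csf3r had 159, 96.1, 120 and 72.2 counts, with KO 2 lowest.

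**Figure D2:**
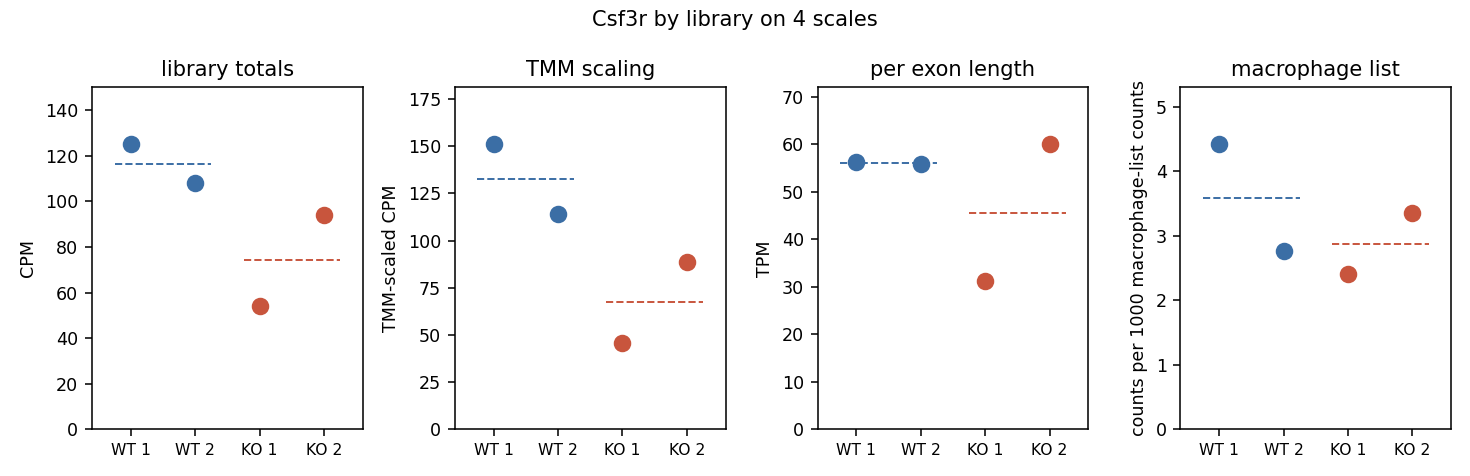
Csf3r in WT 1, WT 2, KO 1 and KO 2 on 4 linear scales that start at 0, namely CPM, TMM-scaled CPM, level per exon length (TPM) and counts per 1000 macrophage marker counts, with dashed group means. KO 1 is lowest in each panel, while KO 2 lies below both WT libraries in CPM (94.2 against 108 and 125) and above both per exon length (60 against 55.8 and 56.2).

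Levels can be compared between genes only per length. In TPM, over the 4 libraries, Csf3r came first at 50.8 ± 13.2 (SD, n = 4) and S100a8 second at 4.64 ± 1.31 (SD, n = 4), and Csf3r was above the other 7 genes in each library. Mmp9 followed at 1.53 ± 0.933, Lcn2 at 1.29 ± 1.66, G0s2 at 1.2 ± 2.07, Retnlg at 1.06 ± 0.885, S100a9 at 0.428 ± 0.495 and Cxcr2 at 0.0383 ± 0.0766 (SD, n = 4 for each). From Mmp9 downward neighbors in this order differed by less than their spread, and the order was not the same in the groups. In WT Retnlg followed S100a8, at 1.4 ± 0.926 (SD, n = 2), above Mmp9 at 0.859 ± 0.891 (SD, n = 2). In KO Mmp9 followed S100a8, at 2.2 ± 0.129 (SD, n = 2), and Retnlg, at 0.72 ± 1.02 (SD, n = 2), stood below S100a9 at 0.856 ± 0.0538 (SD, n = 2). In KO 1 the second place was taken by G0s2, at 4.29, with Lcn2 at 3.74 and S100a8 at 2.69. Among genes with a count, Csf3r stood at percentiles 89.6, 87.9, 81.2 and 86.6 of the TPM values in WT 1, WT 2, KO 1 and KO 2. Per length it was 25.5%, 15.4%, 19.2% and 11.6% of Csf1r, the receptor gene of macrophage colony-stimulating factor, and 29.3%, 18.0%, 22.9% and 16% of Adgre1, which encodes the macrophage antigen F4/80.

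The rest of the neutrophil program was checked with 39 further genes in 4 lists. Of these, 10 had a count of 0 in all 4 libraries: Mpo, Elane and Ctsg, the proteases and peroxidase of primary granules, Camp and Itgb2l of the secondary granule list, the chemokine receptor gene Cxcr1, and the stefins Stfa1, Stfa2, Stfa3 and Stfa2l1. A further 5 had no more than 3 counts in any library, which made 15 of 39 at or under that limit. Ly6g, whose product is the surface antigen used to gate mouse neutrophils, had 2, 0, 1 and 8 counts in the same order of libraries. The secondary granule genes Ltf, for lactoferrin, and Ngp had 3, 0, 0 and 0 counts and 0, 0, 1 and 0 counts. Ly6g, Ltf and Ngp were named after their values were seen. The other 24 of the 39 had over 3 counts in some library, and 13 had at least 20 in every library.

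**Figure D3:**
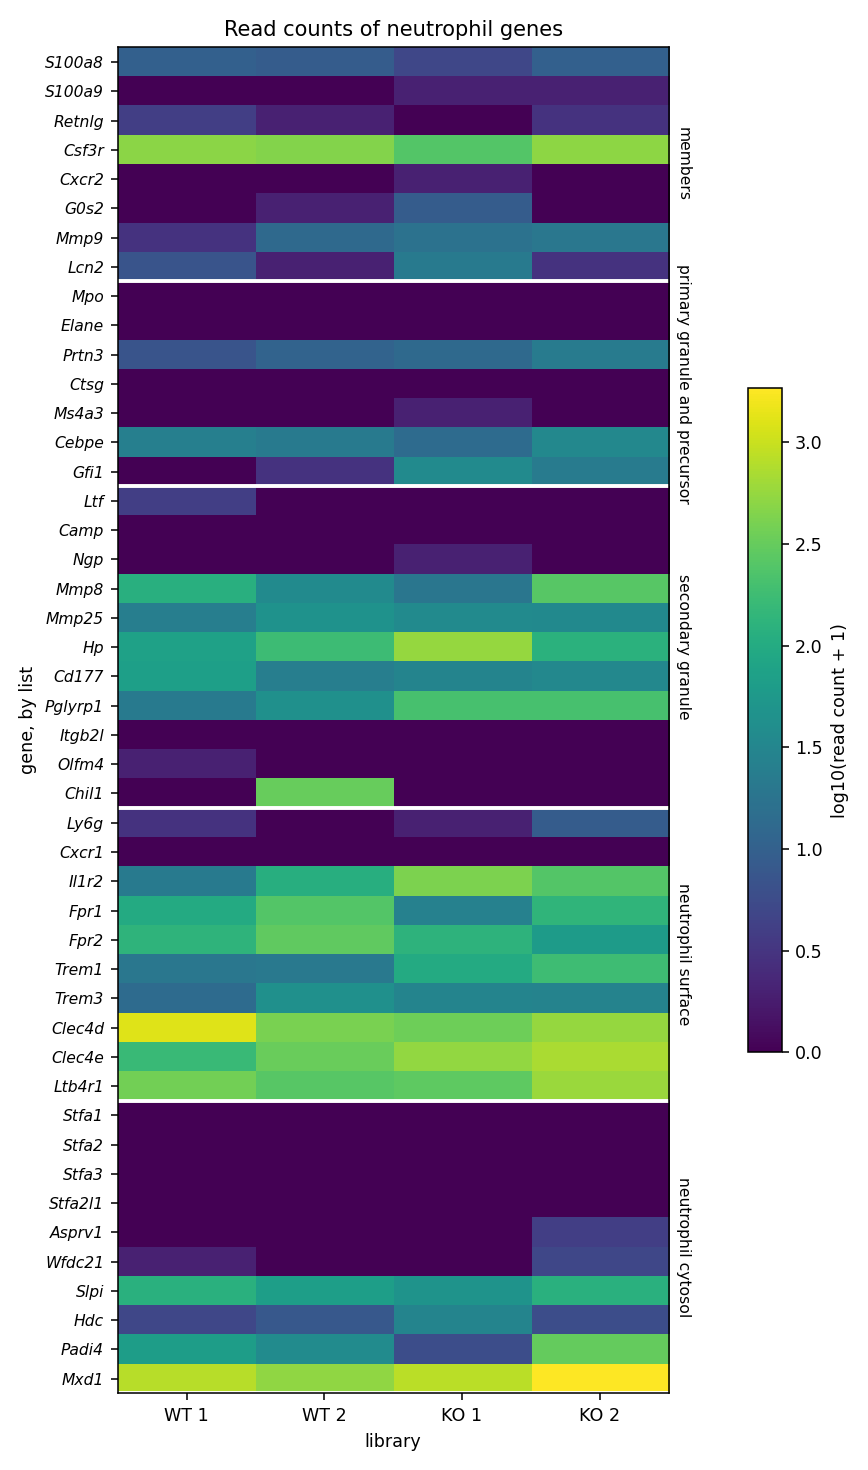
Heat map of log10(read count + 1) for the 8 neutrophil genes and further neutrophil genes (vertical axis, grouped by list) in WT 1, WT 2, KO 1 and KO 2, with dark purple for a count of 0. The dark bands include 10 genes at 0 in all 4 libraries, while Csf3r, Clec4d, Clec4e, Ltb4r1 and Mxd1 are bright throughout.

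Several of the genes with many counts are known from monocytes, macrophages or lymphocytes as well. In the primary granule and precursor list of 7 genes, 3 were tested, 0 passed and 1 had an unadjusted p under 0.05, as 13.7% of all genes tested did. Cebpe, a transcription factor of granulocyte maturation, had 25, 21, 13 and 32 counts, and Prtn3, the gene of proteinase 3, had 6, 10, 12 and 22. Prtn3, at 6 counts in WT 1, was kept by the filter on low counts only with the help of the libraries labeled KO. Gfi1, a transcriptional repressor needed for neutrophil development and also used by T cells, had 0, 2, 36 and 22 counts, a fitted log2 fold change of 4.20 and an edgeR adjusted p of 0.187. It is the gene with the unadjusted p under 0.05, and it passed the filter on low counts only through the libraries labeled KO, so that its values are a description and support no call. Its counts were nearly all in those libraries, where T cell markers summed to 7099 to 11287 counts against 304 to 516 in WT, and the part of T cells in the result was not tested. In its exons, 3.17% of bases are shared with a gene on the other strand.

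In the secondary granule list of 11 genes, 5 were tested, 0 passed in edgeR, 1 had an unadjusted p under 0.05 and 1 passed in DESeq2, beside 13.7% and 3.51% of all genes tested. That gene was Pglyrp1, whose product binds bacterial peptidoglycan, with 21, 42, 205 and 206 counts and no overlap between groups. Its log2 fold change was 2.16 (SE 0.52), with an adjusted p of 0.13 in edgeR and 0.0173 in DESeq2. In edgeR without a filter on low counts, where 2.74% of all genes passed, the adjusted p of Pglyrp1 was 0.0206. Without KO 2 its log2 fold change was 2.17. Hp, which encodes haptoglobin, had 74, 170, 562 and 121 counts, highest in KO 1, and a log2 fold change of 0.99 (edgeR adjusted p = 0.558). Its direction rested on KO 1, since the log2 fold change of Hp was -0.62 without that library, and without KO 2 it was 1.69. Mmp8, the neutrophil collagenase, had 114, 36, 18 and 262 counts, so that KO 1 and KO 2 were the lowest and the highest library.

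The surface list of 11 genes was the best represented, with 9 tested, 0 past the threshold in edgeR, 5 with an unadjusted p under 0.05 and 1 past it in DESeq2, beside 13.7% and 3.51% of all genes tested. Of those 5 genes, 2 had higher values in KO (Trem1 and Il1r2) and 3 lower (Fpr2, Clec4d and Fpr1). Clec4d, a C-type lectin receptor shared with macrophages, had 1280, 401, 349 and 555 counts, with WT 1 far above the rest, a log2 fold change of -1.57 and an edgeR adjusted p of 0.317. Without WT 1 the log2 fold change of Clec4d was -0.33 and without WT 2 it was -2.28. Clec4e, the neighboring lectin receptor Mincle, had 164, 329, 538 and 705 counts and a log2 fold change of 0.78 (edgeR adjusted p = 0.461). Ltb4r1, the receptor for the chemoattractant leukotriene B4, had 375, 263, 284 and 588. The DESeq2 call was Trem1, an activating receptor of monocytes and neutrophils, with 19, 20, 98 and 177 counts, a log2 fold change of 2.21 (SE 0.58) and adjusted p-values of 0.150 in edgeR and 0.0381 in DESeq2. Il1r2, the decoy receptor for interleukin 1, had 21, 109, 423 and 244 counts and a log2 fold change of 1.87 (SE 0.67). Its edgeR adjusted p was 0.273, and 0.0366 without the filter on low counts, where 2.74% of all genes passed. Fpr2, a formyl peptide receptor, had 134, 295, 128 and 61 counts and no overlap in CPM, with a log2 fold change of -1.70 (SE 0.56, unadjusted p = 0.0132) and an edgeR adjusted p of 0.237. The related receptor gene Fpr1 had 97, 243, 26 and 138 counts, which overlapped in CPM, a log2 fold change of -1.62 (SE 0.72, unadjusted p = 0.0497) and an edgeR adjusted p of 0.365. Without KO 2, the log2 fold change of Fpr1 was -3.21 and that of Il1r2 was 2.22. Trem1, Il1r2, Fpr1 and Fpr2 were chosen for naming after their values were seen.

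In the cytosol list of 10 genes, 3 were tested, 0 passed in edgeR or in DESeq2 and 0 had an unadjusted p under 0.05, beside 0.574%, 3.51% and 13.7% of all genes tested. Mxd1, a MAX dimerization protein, had 812, 521, 840 and 1843 counts. Padi4, the arginine deiminase that citrullinates histones in neutrophil extracellular traps, had 64, 37, 5 and 311 counts, with KO 1 and KO 2 again at opposite ends, and Slpi, a protease inhibitor, had 118, 66, 47 and 117. The median log2 fold change of the tested genes was 0.51 in the primary granule and precursor list, 0.19 in the secondary granule list, -0.18 in the surface list and 0.37 in the cytosol list, beside 0.05 over all genes tested, and with 1 library left out the sign changed for each of these lists except the first. That first median is the value of Prtn3, between Cebpe at -0.65 and Gfi1 at 4.20. It supports no direction, since Gfi1 and Prtn3 were kept for testing only with their KO counts. Leaving aside Gfi1, single genes ran from -1.70, for Fpr2, to 2.21, for Trem1.

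The signals that neutrophils answer to were also counted. The CXCR2 ligands numbered 6, of which 4 were tested, 0 passed in edgeR or DESeq2 and 0 had an unadjusted p under 0.05, against the same shares of all genes. Cxcl2, a chemokine that macrophages release, had 1359, 1909, 3391 and 7086 counts, with both KO libraries above both WT libraries, a log2 fold change of 1.09 (SE 0.52) and an edgeR adjusted p of 0.389. Cxcl3 had 55, 18, 10 and 235 counts and Cxcl1 10, 81, 111 and 83, and both overlapped between groups. Cxcl15 was at 0 in all libraries. Cxcl2 thus had 1359 reads or more in every library, where its receptor gene Cxcr2 had 1 read in KO 1 and 0 elsewhere.

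The list of partners held 13 genes for the ligands, receptors, signal transducers and relatives of the 8 neutrophil genes, and of the 8 that were tested 0 passed in edgeR or DESeq2 and 0 had an unadjusted p under 0.05, where 0.574%, 3.51% and 13.7% of all genes did. Csf3, the gene of G-CSF, named here as the ligand of Csf3r, had 5, 2, 8 and 18 counts. Downstream of Csf3r, the signal transducer Stat3 had 743, 900, 1461 and 2123 counts and its feedback inhibitor Socs3 991, 1489, 933 and 3044. The log2 fold changes were 0.54 for Stat3 and 0.09 for Socs3, with edgeR adjusted p-values of 0.614 and 0.965. The sign for Socs3 changed without WT 1 and without KO 2. Retnla, a relative of Retnlg made by alternatively activated macrophages, had 1286, 3520, 3919 and 1462 counts, against at most 3 for Retnlg, while the relatives Retn and Retnlb were at 0 in all libraries.

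**Figure D4:**
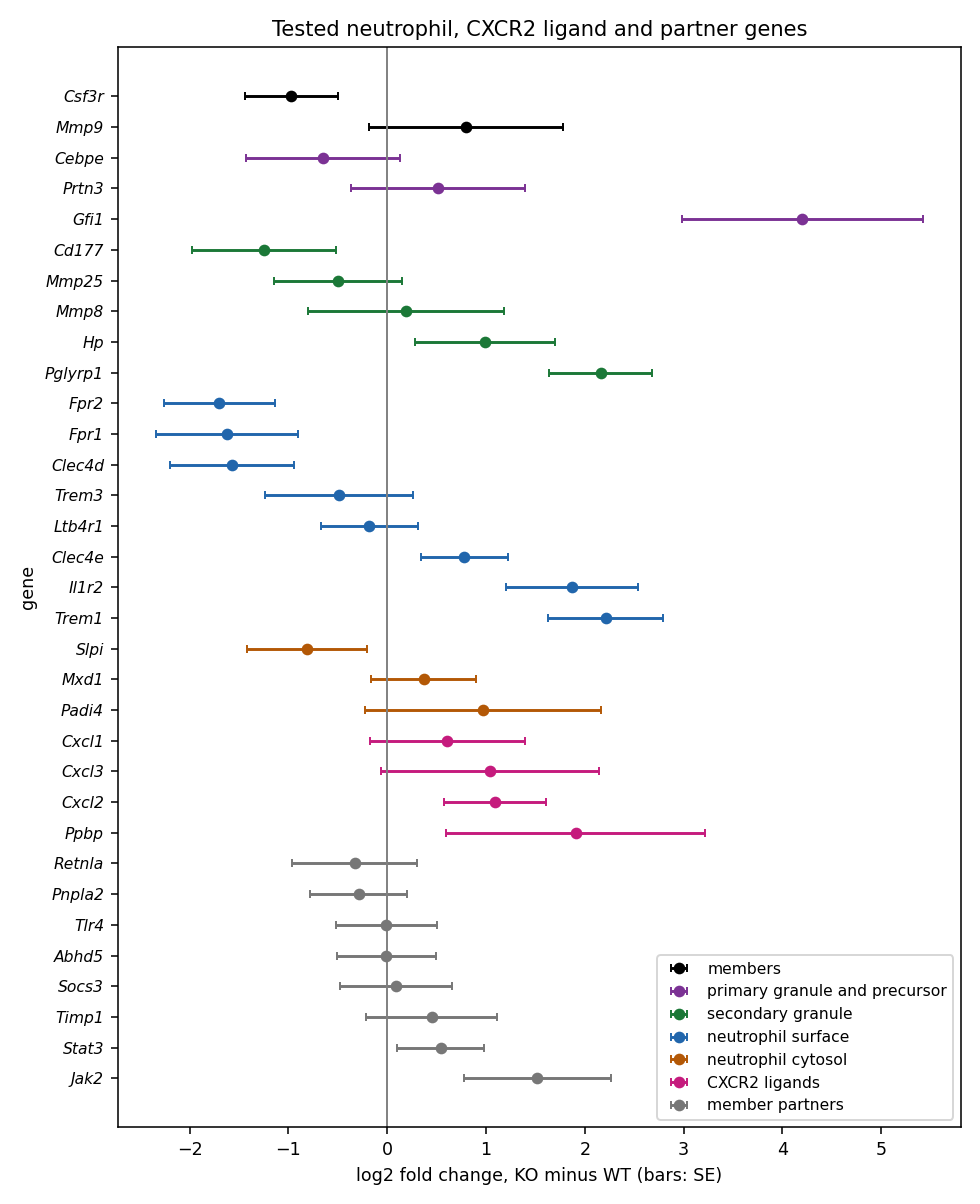
Fitted log2 fold change, KO minus WT, with its standard error (horizontal axis) for tested neutrophil genes, CXCR2 ligands and partner genes (vertical axis, colored by list). Csf3r lies at -0.97 and Mmp9 at 0.80, and the points range from -1.70 for Fpr2 to 4.20 for Gfi1. Gfi1 was kept for testing only through its KO counts, and Mmp9 and Prtn3 only with the help of theirs. Of the points shown, 0 passed the adjusted threshold.

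Markers of other cells that could carry these transcripts were measured beside them, and their counts past the threshold stand against 0.574% of all genes in edgeR and 3.51% in DESeq2. The 6 monocyte markers held 6440 and 6185 counts in WT and 9692 and 8722 in KO, a mean share of 0.153% ± 0.0107 (SD, n = 2) against 0.189% ± 0.0384 (SD, n = 2), and 0 of 6 passed in edgeR, 0 in DESeq2. The 11 macrophage markers held 113316 and 166252 counts in WT and 100378 and 151301 in KO, or 3.36% ± 0.765 (SD, n = 2) against 2.53% ± 0.403 (SD, n = 2), and 0 of 11 passed in edgeR, 1 in DESeq2. A positive log2 fold change was fitted for 2 of these 11 markers, beside 52.6% of all genes tested, and their median was -0.73. Csf3r and the macrophage markers were both lowest in KO 1 in raw counts, and the part of either cell type in the Csf3r values was not tested. Of the 7 markers of eosinophils, basophils and mast cells, Epx, Cpa3 and Mcpt4 were at 0 throughout and the list summed to 0, 3, 16 and 4 counts. The 5 markers of keratinocytes, cells that can express S100a8 and Lcn2 in inflamed skin, summed to 1, 2, 17 and 1 counts, with Krt5, Krt14, Krt1 and Dsp at 0 in every library. The 17 counts of Krt10 fell in KO 1, the library with 21 of Lcn2 and 8 of G0s2.

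KO 1 also stood apart in its stroma markers, which summed to 83 and 82 counts in WT, 6604 in KO 1 and 1094 in KO 2. Of the 5 tested, 3 passed in edgeR (Col3a1, Col1a2 and Col1a1) and 2 in DESeq2. Col3a1 had 7, 1, 3836 and 457 counts and Col1a1 9, 0, 945 and 279. Both passed the filter on low counts only through the libraries labeled KO, so that their values are a description and support no call. The 7 melanoma markers summed to 873 and 1083 counts in WT and 10380 and 6746 in KO, and 1 of 7 passed in edgeR, Tyrp1, and 5 in DESeq2. Of the 10 T cell markers, 9 passed in edgeR, all higher in KO, and 10 in DESeq2. The 7 dendritic cell markers summed to 201 and 360 counts in WT, 966 in KO 1 and 345 in KO 2. Of the 5 tested, 0 passed in edgeR, 4 had an unadjusted p under 0.05 and 2 passed in DESeq2 (Cd209a and Fscn1), beside 0.574%, 13.7% and 3.51% of all genes tested. Fscn1 had 3, 5, 68 and 53 counts, and Zbtb46, among those 4, had 1, 4, 21 and 51. Both passed the filter on low counts only through the libraries labeled KO and support no call. The 4 B cell markers summed to 64 and 182 counts in WT and 21 and 80 in KO, and 0 of 1 tested passed in edgeR or DESeq2. A gate on CD45.2 and CD8 is meant to remove keratinocytes, stroma and melanoma cells. The part of these cell types in the values of Lcn2, G0s2, Mmp9 and Hp was not tested.

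The genes whose pattern over the 4 libraries was closest to that of Csf3r were Tfeb, Gpsm3 and Ctsz, by the root mean square distance of centered log2 CPM among 10434 tested genes with a mean of at least 20 counts. Tfeb, a transcription factor of lysosome genes, had 318, 299, 158 and 330 counts at a distance of 0.0167. Gpsm3, a regulator of G protein signaling, had 170, 161, 83 and 176 at 0.0177. Ctsz, the lysosomal protease cathepsin Z, had 10180, 9366, 5071 and 9991 at 0.0309, and per 1000 Ctsz counts Csf3r had 49.2, 49.0, 47.7 and 50.7 counts. In total 286 genes lay within a distance of 0.2 of Csf3r. For Mmp9 the nearest were P2ry12, Lrrc40 and Pld1 at 0.05, 0.0689 and 0.0917, and 25 genes lay within 0.2. With 4 libraries, and values of all genes in a library scaled by the same total, such likeness is a description. Ctsz was picked for its closeness to Csf3r, so the steady ratio between them follows from that choice.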

How the data were processed

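Bulk RNA-seq of CD45.2+CD8+ cells sorted from B16-F10 tumors gave 4 libraries, grouped by the WT or KO of their titles, with 4017875 to 5382915 counts on genes. The authors deposited raw read counts per gene symbol, made per the labels and the study's methods with HISAT2 2.1.0 on mm10 and HTSeq 0.11.0. The annotation, strand setting and trimming are not given in the sources used here. Summary entries that name no gene were left out, and genes held 20.5 to 28.8% of all reads.

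CPM used the summed gene counts. Genes were tested in edgeR 4.0.16 (R 4.3.3) with filterByExpr (minimum count 10, minimum total 15), TMM, glmQLFit and glmQLFTest, two-sided, with Benjamini-Hochberg adjustment over all genes tested and a threshold of 0.05. DESeq2 1.42.0 was an alternative, where NA stayed NA. The script was tested on simulated counts. Lengths and positions came from GENCODE M21 on GRCm38, which matched 53365 of the 55367 gene entries (96.4%) and all 133 list genes, and promoters from RefSeq. Ratios of pooled counts carry exact conditional 95% intervals.

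Named were the 8 neutrophil genes, listed genes that passed or were at 0 in all libraries, the 3 genes of each list with the highest mean CPM, Satb1 and the 3 nearest patterns of the 2 best-counted neutrophil genes. Other genes named (Ly6g, Ltf, Ngp, Chil1, Trem1, Il1r2, Fpr1, Fpr2, Csf3, Ppbp, Jak2, Csf1r, Adgre1, Zbtb46, Xist and Ddx3y) were chosen after their values were seen. Some list genes are counted but not reported here by name. The neutrophil genes and lists were chosen with earlier results of these data known. Alternatives were other scalings, prior counts and filters, the replicate number as a block, macrophage counts as library size, exon or longest-transcript length, mitochondrial genes left out and each library left out in turn.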

Additional observations from a re-analysis of the deposited data

How the results depend on the processing

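With 2 libraries a group, the filter on low counts kept 2 of the 8 neutrophil genes, and the other 6 entered only the fit without it, where 0 passed. The number of all genes past the threshold was 68 and moved to 134 without scaling, 583 without a filter, 124 under a minimum count of 30, 416 in DESeq2 and 113 to 1248 with 1 library left out, highest without KO 2. As a share of genes tested, those past were 0.574% in the main fit, 2.74% without a filter and 3.51% in DESeq2. Leaving a library out assumes that the lone one varies like the other group. None of the neutrophil genes passed under any setting except Csf3r without KO 2, so their count was 0 to 1, and the log2 fold change of Csf3r was -1.56 to -0.58 with 1 library left out. The count of secondary granule genes past was 2 without a filter (Pglyrp1 and Chil1), 1 in DESeq2 and 0 to 2 with 1 library left out, and that of surface genes was 2, 1 and 0 to 3. With 1 library left out, cytosol and partner genes past were 0 to 1 each (Padi4 and Jak2, without KO 2). Padi4 had a log2 fold change of -3.89 there, against 0.97 with all libraries. The ratio of the summed share was 0.539 to 0.826 with 1 library left out. Csf3r and Mmp9 kept their sign in every setting run. With 1 library left out the median log2 fold change of the primary granule and precursor list kept its sign, at 0.05 to 0.82, and the other medians did not: they ran from -0.60 to 0.52 for secondary granule, -0.45 to 0.36 for surface, -1.56 to 0.86 for cytosol, -0.69 to 1.73 for CXCR2 ligand and -0.14 to 0.25 for partner genes. The kept sign of the primary granule and precursor list supports no direction, since its median was each time the value of Prtn3. Prtn3 and Gfi1, the gene above it, were kept for testing only with their KO counts, and Cebpe stayed below 0, at -1.38 to -0.19. The stricter filter left no primary granule gene tested, so that no median was given.

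The replicate numbers were not shown to pair the libraries: deviations of WT 1 and KO 1 from their group means correlated at -0.179 over 11837 genes. Of the 11837 genes tested, the replicate block gave 215 past the threshold. The crossed pairing, added after seeing the data, gave 647 of the same 11837, with 1 secondary granule and 3 surface genes among them. The cause of these moves was not tested.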

Other observations

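Chil1, a chitinase-like gene of the secondary granule list, had 0 counts in WT 1, 323 in WT 2 and 0 in KO 1 and KO 2. It was not kept by the filter on low counts. Without that filter edgeR gave it an adjusted p of 9.6e-17, from reads of a single library. Ppbp, the CXCR2 ligand stored in platelets, had 12 and 3 counts in the WT libraries and 3 and 89 in KO 1 and KO 2, and the 4 erythroid markers summed to 23, 3, 0 and 222, both highest in KO 2 and next in WT 1.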
